A study of Mus musculus with 3 samples.

Results

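Fibroblasts of the aortic arch intima were picked out of 3 droplet single-cell RNA libraries by the transcripts they carried. A barcode, the label of 1 droplet, was chosen by its own UMI counts (unique molecular identifiers, 1 per captured RNA molecule) and taken as a fibroblast if at least 4 of 10 genes (Dcn, Lum, Pdgfra, Pi16, Dpt, Clec3b, Col1a1, Col1a2, Serpinf1 and Pcolce) had a UMI. Those genes had to make up at least 0.5% of the barcode's UMIs after mitochondrial, Gm42418, AY036118 and haemoglobin genes were set aside, and to outnumber the sum of 5 endothelial genes. At most 1 UMI of the leukocyte gene Ptprc and at most 1 of 3 mesothelial genes was allowed. The rule found 407 fibroblasts among 8284 barcodes that reached 500 UMIs and 300 genes with no more than 15% of UMIs from mitochondria. They were 24 of 431 barcodes in control replicate 1, 121 of 2697 in control replicate 2 and 262 of 5156 in the lipopolysaccharide (LPS) library.

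All mice were C57BL/6J wildtypes aged 12 to 13 weeks, and each library pooled males and females, 5 to 10 animals in all. The control group was untreated, and the LPS group received 30 µg of ultrapure LPS, a bacterial cell wall product sensed through Toll-like receptor 4, by the intravenous route 18 h before harvest. In every library the transcription blocker actinomycin D was present during perfusion and dissection, and cells were freed from the lesser curvature with collagenase D and DNase I and a pipet tip. The LPS group is 1 library, so no spread between LPS samples was measured.

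Fibroblasts build and remodel the connective tissue of the vessel wall, secreting collagens, proteoglycans and elastic fibre proteins together with the proteases and inhibitors that turn them over. In arteries most of them lie in the adventitia, the outer coat, where cells marked by Pi16 and Dpp4 are regarded as a progenitor-like pool and Col15a1-expressing cells as a more tissue-specialised one. Stimulated by bacterial products or cytokines, fibroblasts also release chemokines, acute-phase proteins and complement factors, and respond to interferon.

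The libraries differed in depth and quality, which bears on every comparison of these cells. Summed over fibroblasts, UMIs came to 84567 and 446337 in the controls and 1003757 in the LPS library, with medians per barcode of 1255.5, 1920 and 2202. In control replicate 1 the 10 deepest barcodes held 84.6% of fibroblast UMIs, against 31.7% in control replicate 2 and 24.4% in the LPS library. Gm42418, a locus overlapping ribosomal RNA, took 14.6%, 1.75% and 29.1% of fibroblast UMIs, and haemoglobin genes took 18.0%, 20.8% and 7.03%. At least 40% of UMIs fell on Gm42418 in 173 of the 262 LPS fibroblasts, against 2 and 0 in the controls. Library pairs shared 1 to 6 barcode sequences, 0 of them among fibroblasts.

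**Figure D1:**
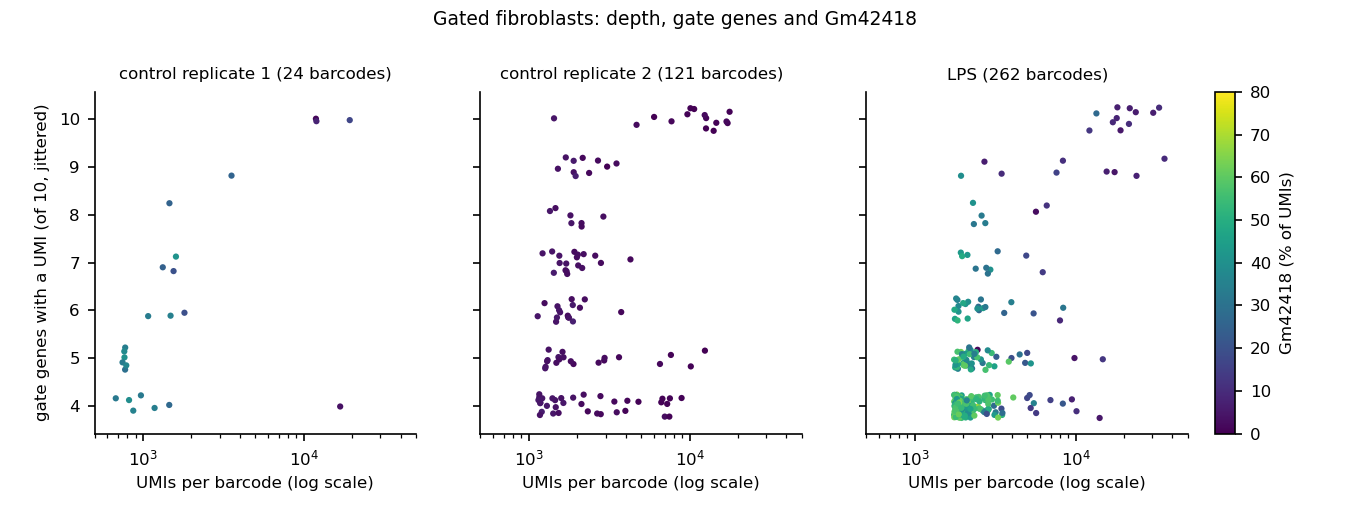
Each point is 1 gated fibroblast, with its UMIs on a log axis and the number of gate genes that had a UMI (of 10, jittered), coloured by the percentage of UMIs on Gm42418, with a panel per library (24, 121 and 262 fibroblasts, controls first). Most LPS barcodes sit at 4 gate genes near 2043 UMIs with a high Gm42418 share.

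Gate genes chose the cells, so their values are a description. Dcn, the collagen-binding proteoglycan decorin, had 7811 and 7125 CPM in the controls and 7928 CPM in the LPS library (CPM is each gene's share of the summed UMIs, here scaled by the trimmed mean of M values, TMM). Pi16, a secreted peptidase inhibitor, had 4258 and 2479.6 CPM against 1124 CPM, and Clec3b, the plasminogen-binding protein tetranectin, had 3035 and 2134 CPM against 523 CPM. Col1a2, a chain of type I collagen, had 3231 and 2176 CPM against 1269 CPM. Pdgfra, a growth factor receptor, had 831 and 282 CPM against 272 CPM, and Serpinf1, a secreted serpin, had 427 and 767 CPM against 376 CPM. Of the 10 genes, all but Dcn were lowest in the LPS library.

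Many members lay close to the edge of the rule. Exactly 4 gate genes were found in 7, 35 and 155 fibroblasts, with a median of 9, 5 and 6 gate UMIs, while 8, 39 and 359 barcodes that met the other conditions but had 3 gate genes carried a median of 7, 5 and 5. At least 7 gate genes were found in 8, 50 and 36 fibroblasts, whose median depths were 2580.5, 2137.5 and 6430.5 UMIs. These better-marked barcodes, called core fibroblasts here, served as a check on each count. As shares of all barcodes kept, fibroblasts came to 5.57% (exact 95% interval 3.60 to 8.17%), 4.49% (3.74 to 5.34%) and 5.08% (4.50 to 5.72%), and the 3 intervals overlapped. A stricter gate of at least 5 genes and 1% of UMIs gave 3.71%, 2.34% and 1.61%, and counting only barcodes with under 40% Gm42418 and under 10% haemoglobin gave 5.26%, 4.11% and 10.4%. The smallest barcode kept had 501, 1117 and 1750 UMIs in the 3 libraries, so these shares are over sets cut at different depths, and no direction is read from them.

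Marker genes that the rule had not used went with the fibroblast label in the sums. All 10 of them (among them Col3a1, Gsn, Mfap5 and Cd248) had UMIs in each library, and together they came to 20706, 18500 and 9534 unscaled CPM (CPM without the TMM factor) in fibroblasts. The same genes came to 118, 673 and 555 unscaled CPM in T-lineage barcodes, which should lack them, and to 1777, 2539 and 4195 in endothelial cells. Gsn alone gave 11754, 11263 and 4518 of the fibroblast sums. Endothelial cells had more Ly6a with LPS (3376 against 2829) and more Pdgfrl in control replicate 1 (12.2 against 11.8). The other values were higher in fibroblasts, by little for Mfap5 with LPS (265 against 215). Of 12 endothelial markers 7, 11 and 12 had UMIs, summing to 177, 1140 and 487 unscaled CPM, with Cdh5, Egfl7, Tie1, Esam and Kdr at 0 in control replicate 1 and Kdr at 0 in control replicate 2. Smooth muscle markers summed to 615, 5554 and 1170 unscaled CPM and macrophage markers to 23.6, 336 and 184. Neutrophil markers were at 0 in both controls and at 95.6 unscaled CPM in LPS fibroblasts, against 5153 in the LPS library as a whole. The part these other transcripts play in the results below was not tested.

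Barcode by barcode the label held less well. Clustering the 121 fibroblasts of control replicate 2 on their own gave a cluster of 20 deep barcodes (median 9897.5 UMIs) with 10 gate genes at the median and the leading genes Gsn, C3, Cfb and Mmp3. Another 35 barcodes were led by Aspn and Sfrp4, secreted matrix and Wnt-binding proteins, and 59 were led by the endothelial genes Emcn, Eng and Ptprb. A last group of 7 was 84.9% haemoglobin. LPS fibroblasts fell into 30 deep barcodes (median 12828.5 UMIs, 9 gate genes) led by Lbp, Ptx3, Gsn and Mmp2, 92 with Cxcl13, Ccl2 and Prrx1 among their leading genes, 132 of 51.8% Gm42418 led by C1qa, Ctss and Cd52, and 8 that were mostly haemoglobin. Of the 132 barcodes, 14.4% had a UMI of C1qa, 13.6% of Ctss and 6.82% of Cd52, and 92.4% of the gate gene Dcn. Their leading genes also included Myl9 and Acta2 of smooth muscle. The clusters were used only as a description. Whether barcodes of clusters led by endothelial, macrophage or erythroid genes are fibroblasts was not tested. All gated barcodes are called fibroblasts below by the rule alone.

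Among all genes, LPS fibroblasts differed from control fibroblasts in 668 of 6590 tested (10.1%), 420 higher (6.37%) and 248 lower (3.76%), by edgeR's quasi-likelihood test with Benjamini-Hochberg adjustment at 0.05. Genes of the gates are left out of this count and of those that follow. The median log2 fold change over all genes tested was 0.03. For 656 of the 668 (9.95% of genes tested) the LPS value lay outside both controls, and this held for 69.7% of all genes tested. In such sums, fewer cells of a type and less RNA per cell cannot be told apart. The test has 1 residual degree of freedom and takes the LPS library to vary like the controls. DESeq2 called 51 higher and 41 lower on the same sums, 92 of the 668 in all with the same sign, and core fibroblasts gave 351 higher (7.16%) and 226 lower (4.61%) of 4899 genes. Of the 668 calls, 474 were also made in core fibroblasts with the same sign, and 367 in fibroblasts with under 40% Gm42418 and under 10% haemoglobin, called clean fibroblasts here, which gave 239 higher (4.04%) and 145 lower (2.45%) of 5916. Counts for the gene lists below are to be read beside these shares over all genes.

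**Figure D2:**
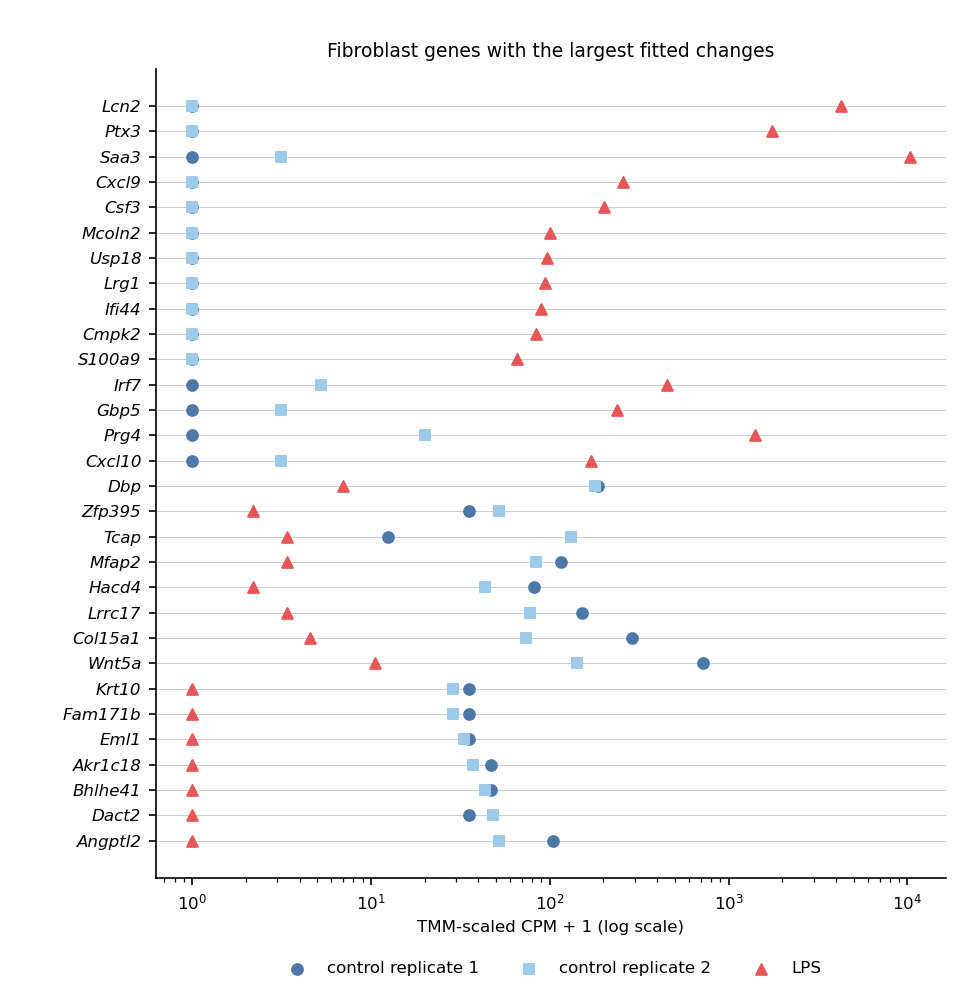
TMM-scaled CPM plus 1 (log axis) of the 15 genes with the largest fitted rise and the 15 with the largest fitted fall in fibroblasts, 1 point per library. The LPS triangle lies right of both controls for genes from Lcn2 to Cxcl10 and left of both from Dbp to Angptl2.

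The largest fitted rises were those of the acute-phase genes Lcn2, Saa3 and Ptx3. Saa3, a serum amyloid A protein made outside the liver, had 0 and 1 UMIs in the control fibroblasts and 8613 in LPS fibroblasts, or 0, 2.14 and 10323 CPM. The ratio of LPS to pooled controls was 5728 (95% counting interval 1028 to 226277, adjusted p = 2.57e-48). Lcn2, the iron-scavenging protein lipocalin 2, was at 0 in both controls and at 4231 CPM with LPS, at least 783-fold higher (adjusted p = 7.76e-43). Ptx3, the soluble pattern recognition molecule pentraxin 3, went from 0 in both controls to 1741 CPM, at least 322-fold higher (adjusted p = 1.19e-33). These lower bounds set the controls at 3 UMIs over the group. Because control replicate 1 was shallow, 3 of its UMIs equal 34.6 CPM, and against that library alone the rises were at least 298-fold for Saa3, 122-fold for Lcn2 and 50.3-fold for Ptx3.

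The 3 genes differed in where else they were found. In the LPS library Saa3 stood at 8581 unscaled CPM in fibroblasts, 154 in endothelial cells and 111 in T-lineage barcodes. Ptx3 stood at 1448, 21.5 and 15.1, whereas Lcn2 was higher in endothelial cells (9343) than in fibroblasts (3517). After thinning every barcode to 500 UMIs, Saa3 was found in 43.9% of LPS fibroblasts and 4.05% of LPS T-lineage barcodes, Ptx3 in 15.3% and 0%, and Lcn2 in 63.7% and 22.97%. Before thinning these shares were 80.2% and 47.3% for Saa3, 33.6% and 9.46% for Ptx3, and 98.5% and 86.5% for Lcn2, at median depths of 2202 and 5910.5 UMIs. A single barcode held 25.0% of all Saa3 UMIs, and the 30 deep LPS barcodes had 3667 CPM of Ptx3, computed without the genes set aside above, against 696 in the other LPS fibroblasts. On that scale Lcn2 had 5616, 5427, 6359 and 6639 CPM in the LPS clusters of 132, 92, 30 and 8 barcodes, the last mostly haemoglobin. Saa3 had 2990, 11306, 19695 and 1698 CPM there. The part of free RNA in the Lcn2 values was not tested.

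Of 27 acute-phase and LPS feedback genes tested, from 34 listed, 25 rose and 0 fell, with a median log2 change of 3.06. A member at or near 0 in both controls entered the test only through its LPS counts, so the filter partly sets the counts of higher genes. This holds here and in other lists with such members, the interferon, GTPase, chemokine, cytokine and S1P lists included. A member at 0 with LPS likewise entered only through its control counts, as in the clock and growth factor lists. In core fibroblasts 23 of 26 rose. Lrg1, a leucine-rich glycoprotein, was at 0 in both controls and at 93.5 CPM with LPS, at least 17.3-fold higher (adjusted p = 1.08e-07). Serpina3f, an inducible serpin with near-identical copies that share reads, rose from 0 in both controls to 52.7 CPM, at least 9.75-fold (adjusted p = 0.000193). Cp, the copper-carrying ferroxidase ceruloplasmin, had 69.2 and 85.4 CPM against 1354 CPM (log2 change 4.08 ± 0.52 SE, adjusted p = 1.02e-12). Lbp, which delivers LPS to its receptor, had 34.6 and 81.2 CPM against 422 CPM (2.65 ± 0.50, adjusted p = 7.94e-06). Without control replicate 2 the log2 change of Lbp was 3.57, and the bounds of Lrg1 and Serpina3f were 2.70-fold and 1.52-fold.

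Promoter sequences of 4 genes that rose are shown for the motif letters they hold. They come from RefSeq on GRCm38.p6 and run from 250 bases before to 50 bases after the gene's start. Capitals mark matches on either strand to a pair of GAAA with 2 bases of any kind between them, the core of the interferon-stimulated response element (ISRE), or to GGGA and TTCC with 2 bases of any kind between them, an NF-kB motif. Ifit1 (chr19:34640639-34640938, plus strand) and Saa3 (chr7:46715627-46715926, minus strand) hold the first only, Cxcl1 (chr5:90890995-90891294, plus strand) the second only, in 2 overlapping matches, and Gbp5 (chr3:142496684-142496983, plus strand) both.
Ifit1: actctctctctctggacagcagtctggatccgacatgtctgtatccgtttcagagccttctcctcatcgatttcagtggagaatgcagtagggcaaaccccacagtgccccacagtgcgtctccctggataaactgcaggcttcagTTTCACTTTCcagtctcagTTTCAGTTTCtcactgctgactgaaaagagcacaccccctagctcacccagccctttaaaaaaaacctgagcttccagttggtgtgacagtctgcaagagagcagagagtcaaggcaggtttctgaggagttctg
Gbp5: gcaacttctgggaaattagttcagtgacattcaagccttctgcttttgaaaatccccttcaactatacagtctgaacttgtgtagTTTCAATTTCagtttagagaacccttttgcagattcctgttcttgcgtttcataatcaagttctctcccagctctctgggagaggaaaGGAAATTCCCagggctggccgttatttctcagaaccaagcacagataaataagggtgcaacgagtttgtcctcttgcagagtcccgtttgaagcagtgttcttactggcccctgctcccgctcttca
Cxcl1: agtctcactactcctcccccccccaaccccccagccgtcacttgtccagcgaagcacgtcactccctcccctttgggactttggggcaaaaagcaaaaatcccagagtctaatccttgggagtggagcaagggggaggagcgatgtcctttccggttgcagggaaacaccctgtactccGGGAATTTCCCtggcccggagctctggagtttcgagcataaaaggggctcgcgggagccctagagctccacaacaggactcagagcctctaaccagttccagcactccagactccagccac
Saa3: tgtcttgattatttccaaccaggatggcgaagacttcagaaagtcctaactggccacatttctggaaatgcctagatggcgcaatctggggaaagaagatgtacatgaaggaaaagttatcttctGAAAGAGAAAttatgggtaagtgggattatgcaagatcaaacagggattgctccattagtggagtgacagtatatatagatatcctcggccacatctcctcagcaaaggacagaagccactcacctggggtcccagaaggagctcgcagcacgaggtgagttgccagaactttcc

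The ISRE core was in 1079 of 27025 promoters in the same RefSeq table (3.99%), and the NF-kB motif in 441 (1.63%). Among type I interferon genes that rose in fibroblasts, 29 of 37 had an entry and 16 of them held the ISRE core, Ifit1, Isg15, Rsad2 and Stat2 included. For the guanylate-binding proteins and GTPases that rose, 8 of 12 had an entry and 8 of 8 held it. The NF-kB motif was in 3 of the 6 risen chemokine genes with an entry (of 9), which were Cxcl1, Cxcl2 and Cxcl10. Of the acute-phase genes that rose, 21 of 25 had an entry, and 1 of these held the ISRE core (Saa3) and 1 the NF-kB motif (Nfkbia). The ISRE core was in 1 of the 6 chemokine genes (Cxcl10), and the NF-kB motif in 2 of the 29 interferon genes and 2 of the 8 GTPase genes. Over all listed members with an entry, the ISRE core was in 21 of 38 interferon and 9 of 9 GTPase genes. It was in 3 of 17 listed chemokine genes and 2 of 27 listed acute-phase genes. The NF-kB motif was in 4 of 17 listed chemokine genes. Whether a motif goes with the rise, rather than with membership of a list, was not tested. A match describes letters in a window and is not a measured binding site.

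Of 41 interferon-stimulated genes tested, from 50 listed, 37 rose and 0 fell, with a median log2 change of 3.24 (2.97 with genes at 0 in the controls put at their bound). Irf7, the transcription factor that amplifies the type I interferon response, had 0 and 4.27 CPM in the controls and 451 CPM with LPS, a ratio of 125 (34.4 to 1036, adjusted p = 3.57e-18). Ifit1, which binds viral RNA, had 11.5 and 25.6 CPM against 568 CPM (4.65 ± 0.57, adjusted p = 2.73e-13). Usp18, which removes ISG15 from proteins, was at 0 in both controls and at 95.9 CPM with LPS, at least 17.7-fold higher (adjusted p = 7.81e-08), but LPS T-lineage barcodes had 136 unscaled CPM of Usp18 against 79.7 in fibroblasts. Whether T-lineage cells expressed Usp18 themselves was not tested. Also at 0 in both controls were Ifi44, an interferon-induced gene at 88.7 CPM with LPS (at least 16.4-fold), Cmpk2, a mitochondrial nucleotide kinase at 82.7 CPM (at least 15.3-fold), and Oas2, a sensor of double-stranded RNA at 40.8 CPM (at least 7.54-fold). In every case LPS fibroblasts lay above both controls. Without control replicate 2 the log2 change of Ifit1 was 5.49, and the rise was at least 13.0-fold for Irf7, 2.77-fold for Usp18, 2.56-fold for Ifi44, 2.39-fold for Cmpk2 and 1.18-fold for Oas2. Core fibroblasts gave 36 of 41 higher and 1 lower, and DESeq2 called 8 of 41.

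Guanylate-binding proteins and immunity-related GTPases act on vacuoles of intracellular microbes. Of 16 listed, 12 could be tested and 12 were higher with LPS, with a median log2 change of 4.08 (3.78 with bounds). Gbp5 had 0 and 2.14 CPM against 237 CPM, a ratio of 132 (23.4 to 5227, adjusted p = 8.46e-15). Gbp3 had 11.5 and 14.95 CPM against 314 CPM (4.43 ± 0.59, adjusted p = 1.72e-11). Tgtp2 was at 0 in both controls and at 34.8 CPM with LPS, at least 6.43-fold higher (adjusted p = 0.011). Set against control replicate 1 alone, the rise was at least 6.86-fold for Gbp5, and for Tgtp2 the bound was 1.00. Several of these genes have near-identical copies, so their reads may be split between copies. DESeq2 called 5 of the 12.

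MHC class I and immunoproteasome genes rose in part, 9 of 21 with 0 lower and a median of 1.20. B2m, the light chain of MHC class I, had 358 and 624 CPM against 2339.6 CPM (2.22 ± 0.47, adjusted p = 8.94e-05). Tapbp, which loads peptides onto class I, had 92.3 and 128 CPM against 653 CPM (2.50 ± 0.50, adjusted p = 2.32e-05). B2m in LPS T-lineage barcodes was 2498 unscaled CPM against 1945 in fibroblasts, which is not a measure of free RNA where T-lineage cells express B2m themselves. MHC class II genes gave 0 calls among 4 tested, with a median of -0.54.

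Among 12 chemokine genes tested, from 27 listed, 9 rose and 1 fell. Cxcl9, an attractant of activated T cells, was at 0 in both controls and at 256 CPM with LPS, at least 47.4-fold higher (adjusted p = 3.26e-17). Cxcl1, an attractant of neutrophils, had 11.5 and 4.27 CPM against 379 CPM, a ratio of 70.1 (23.8 to 342, adjusted p = 1.28e-15). Cxcl10, an interferon-inducible attractant of T cells, had 0 and 2.14 CPM against 170 CPM, a ratio of 94.4 (16.7 to 3756, adjusted p = 1.32e-11), and Ccl5, a T cell and monocyte attractant, had 0 and 6.41 CPM against 406 CPM, a ratio of 75.2 (25.5 to 366, adjusted p = 1.36e-16). For both of these the LPS T-lineage barcodes held more than fibroblasts in unscaled CPM, 186 against 141 for Cxcl10 and 1135 against 338 for Ccl5. T-lineage cells may express both genes themselves, so these levels are not a measure of free RNA. The 10 deepest LPS fibroblasts held 24.4% of all LPS fibroblast UMIs, but 2.11% of those of Cxcl10 and 16.5% of those of Ccl5. For Cxcl9 and Cxcl1 they held 49.5% and 29.4%. A single barcode held 17.6% of Cxcl10 UMIs, and which cells its transcripts came from was not tested. With control replicate 2 left out, the rise was at least 7.41-fold for Cxcl9, 4.92-fold for Cxcl10 and 11.7-fold for Ccl5, and the ratio of Cxcl1 was 32.8. Ccl11, the eosinophil attractant eotaxin, went the other way, from 254 and 284 CPM to 36.0 CPM (-2.91 ± 0.57, adjusted p = 1.98e-05).

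Cytokine and NF-kB genes moved in smaller number, 6 of 16 higher and 1 lower. Csf3, the growth factor of neutrophil production, was at 0 in both controls and at 201 CPM with LPS, at least 37.2-fold higher (adjusted p = 5.71e-15). Il6, the inducer of the hepatic acute phase, was at 0 in both controls and at 53.9 CPM, at least 9.98-fold higher (adjusted p = 0.000159). Ptgs2, the inducible prostaglandin synthase, had 0 and 2.14 CPM against 111 CPM, a ratio of 61.9 (10.8 to 2469, adjusted p = 2.03e-07), while its constitutive relative Ptgs1 fell from 57.7 and 89.7 CPM to 20.4 CPM (-1.95 ± 0.66, adjusted p = 0.0339). In clean fibroblasts both Il6 and Ptgs2 passed, but Ptgs2 did not pass in core fibroblasts (log2 change 3.88, adjusted p = 0.195), and Il6 was too low there to be tested. S100a9, a neutrophil granule protein, was at 0 in both controls and at 64.7 CPM with LPS, at least 12.0-fold higher, and too low for a test in core or clean fibroblasts. Its 53.8 unscaled CPM in LPS fibroblasts compared with 15.1 in T-lineage barcodes. Against control replicate 1 alone the rise was at least 5.82-fold for Csf3, 1.56-fold for Il6, 3.22-fold for Ptgs2 and 1.87-fold for S100a9.

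**Figure D3:**
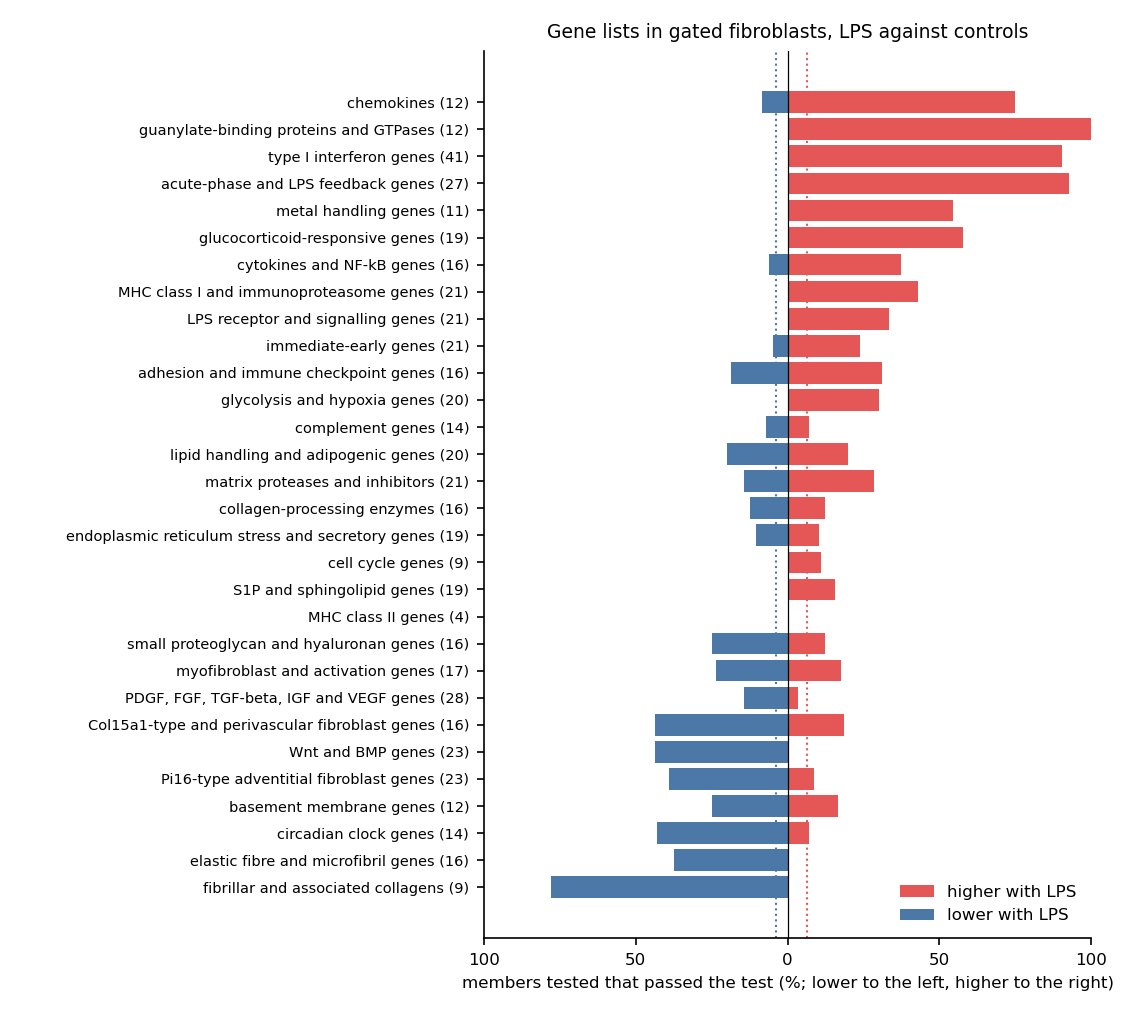
Percentage of tested members of each of 30 gene lists that passed the test in fibroblasts, higher with LPS to the right and lower to the left, with the number tested in parentheses and the shares over all genes, 6.37% and 3.76%, as dotted lines. Lists are sorted by median log2 change, from chemokines at 5.02 to fibrillar and associated collagens at -1.51.

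Among fibrillar and associated collagens 7 of 9 tested fell and 0 rose, with a median log2 change of -1.51. Col3a1, the chain of type III collagen, had 3265 and 2042 CPM in the controls and 934 CPM with LPS (-1.50 ± 0.52, adjusted p = 0.0434). Col6a3 and Col6a1, chains of the microfibrillar type VI collagen, went from 173 and 143 CPM to 10.8 CPM (-3.80 ± 0.62, adjusted p = 1.14e-07) and from 369 and 286 CPM to 88.7 CPM (-1.86 ± 0.54, adjusted p = 0.0102). Col5a1, which regulates fibril diameter, went from 288 and 190 CPM to 33.6 CPM (-2.76 ± 0.56, adjusted p = 4.07e-05). The LPS value was below both controls for each of the 4 genes. In core fibroblasts 5 of 9 passed and in clean fibroblasts 2 of 9, with medians of -1.45 and -1.35, and DESeq2 called 1. Over all genes tested in those sets, 4.61% and 2.45% were lower. The 2 collagen genes of the gate, Col1a1 and Col1a2, were described above.

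Elastic fibre and microfibril genes gave 6 of 16 lower and 0 higher, with a median of -1.41. Fbln5, which links elastin to integrins, had 599.98 and 622 CPM against 104 CPM (-2.55 ± 0.56, adjusted p = 0.000188). Mfap2, a microfibril protein, had 115 and 83.3 CPM against 2.40 CPM, a ratio of controls to LPS of 36.8 (9.67 to 313, adjusted p = 9.5e-07). Emilin2, an elastin-associated glycoprotein, had 185 and 111 CPM against 16.8 CPM (-2.998 ± 0.59, adjusted p = 1.88e-05). Eln, elastin itself, had 254 and 536 CPM against 108 CPM (-1.92 ± 0.54, adjusted p = 0.00724), a log2 change of -1.23 without control replicate 2. In control replicate 2 Eln had a UMI in 79.3% of fibroblasts, and the 10 deepest held 9.96% of its UMIs, against 31.7% of all fibroblast UMIs. For Fbln5, Mfap2 and Emilin2 they held 29.2%, 59.0% and 65.4%. The part of free RNA or other cell types in the Eln value was not tested.

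Small proteoglycan and hyaluronan genes divided, 4 of 16 lower and 2 higher. Ogn, osteoglycin, had 1558 and 1313 CPM against 234 CPM (-2.61 ± 0.56, adjusted p = 9.9e-05), and Aspn, asporin, had 150 and 167 CPM against 37.2 CPM (-2.10 ± 0.53, adjusted p = 0.00164). Prg4, the lubricant lubricin, rose from 0 and 19.2 CPM to 1398 CPM (6.51 ± 0.61, adjusted p = 1.92e-23), and was at least 40.4-fold higher without control replicate 2. It stood at 1162 unscaled CPM in LPS fibroblasts, 46.0 in endothelial cells and 16.9 in T-lineage barcodes, and 1 barcode held 23.6% of its UMIs. DESeq2 did not call it (adjusted p = 0.0818).

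Basement membrane genes also divided, 2 of 12 higher and 3 lower. Col4a1, a chain of type IV collagen, rose from 80.8 and 147 CPM to 897 CPM (2.87 ± 0.49, adjusted p = 4.88e-07), a log2 change of 3.45 without control replicate 2. Sparc, a collagen-binding counter-adhesive protein, fell from 2249.9 and 1689 CPM to 634 CPM (-1.63 ± 0.52, adjusted p = 0.0243). Nid1, which joins laminin to type IV collagen, fell from 865 and 466 CPM to 197 CPM (-1.73 ± 0.53, adjusted p = 0.0171). Of 16 collagen-processing enzymes 2 rose and 2 fell: Lox, which cross-links collagen and elastin, rose from 104 and 128 CPM to 364 CPM (1.61 ± 0.49, adjusted p = 0.0157), and Pcolce2, an enhancer of procollagen cleavage, fell from 681 and 636 CPM to 127 CPM (-2.37 ± 0.55, adjusted p = 0.000538). Sparc, Nid1 and Lox did not pass in clean fibroblasts.

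**Figure D4:**
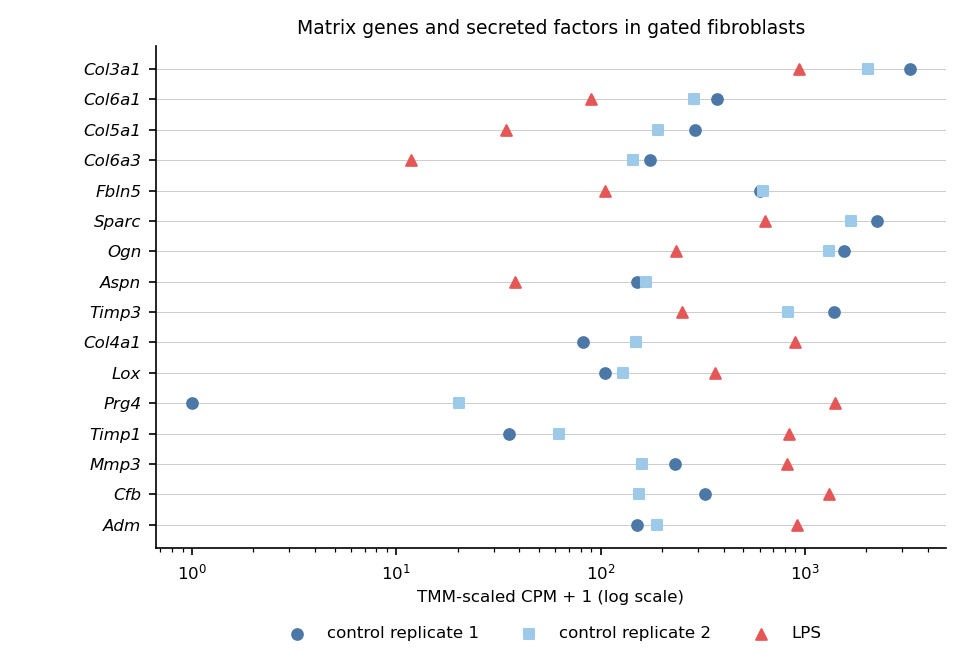
TMM-scaled CPM plus 1 (log axis) of 16 matrix genes and secreted factors in fibroblasts, 1 point per library. The LPS triangle lies left of both controls from Col3a1 to Timp3 and right of both from Col4a1 to Adm.

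Proteases and their inhibitors gave 6 of 21 higher and 3 lower. Timp1, an inducible inhibitor of matrix metalloproteinases, rose from 34.6 and 61.9 CPM to 834 CPM (3.95 ± 0.53, adjusted p = 1.91e-11), whereas Timp3, the matrix-bound inhibitor, fell from 1396 and 831 CPM to 250 CPM (-2.14 ± 0.54, adjusted p = 0.00183). Adamts15, a proteoglycan-cleaving protease, rose from 11.5 and 25.6 CPM to 216 CPM (3.24 ± 0.55, adjusted p = 2.54e-07). Mmp3, stromelysin 1, had 231 and 158 CPM against 820 CPM (2.13 ± 0.49, adjusted p = 0.000406), but a single barcode held 19 of its 20 UMIs in control replicate 1 and another 66 of its 74 in control replicate 2. The log2 change was 4.55 for Timp1 and 4.10 for Adamts15 without control replicate 2. In LPS fibroblasts 22.1% of barcodes had an Mmp3 UMI, against 5.41% of T-lineage barcodes.

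Of 23 genes of Pi16-type adventitial fibroblasts 9 were lower and 2 higher (median -1.06), and of 16 tested genes of Col15a1-type fibroblasts 7 were lower and 3 higher (median -0.84). Cd248, a stromal surface glycoprotein, had 438 and 305 CPM against 25.2 CPM (-3.84 ± 0.62, adjusted p = 6.76e-08). Sema3c, a secreted guidance cue, had 173 and 254 CPM against 18.0 CPM (-3.61 ± 0.60, adjusted p = 1.64e-07). Dpp4, a surface peptidase, had 46.2 and 70.5 CPM against 7.19 CPM (-3.09 ± 0.79, adjusted p = 0.00204). Higher were Ly6a and Ly6c1, surface proteins of stromal and endothelial cells, which rose from 831 and 1155 CPM to 3404 CPM (1.77 ± 0.47, adjusted p = 0.00355) and from 335 and 352 CPM to 994 CPM (1.53 ± 0.48, adjusted p = 0.0189).

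Col15a1 itself, a basement-membrane-zone collagen, had 288 and 72.6 CPM against 3.60 CPM, a ratio of controls to LPS of 29.6 (9.64 to 147, adjusted p = 3.34e-10), or 80.2 without control replicate 2. In control replicate 2 the 10 deepest fibroblasts held 2.94% of its UMIs, against 31.7% of all fibroblast UMIs. In control replicate 1 these shares were 84.0% and 84.6%. The 20 deep barcodes of control replicate 2 had 48.4 CPM, computed without the genes the rule sets aside, against 183 in its other fibroblasts. Which cells these transcripts came from was not tested. Abca8a, a lipid transporter, had 623 and 346 CPM against 22.8 CPM (-4.36 ± 0.64, adjusted p = 2.39e-09). Among the genes that rose, Apod, a lipid-binding lipocalin, rose from 23.1 and 21.4 CPM to 549 CPM (4.64 ± 0.58, adjusted p = 5.88e-13), and stood at 456 unscaled CPM in LPS fibroblasts, 14.3 in endothelial cells and 7.53 in T-lineage barcodes. Cyp1b1, a steroid- and retinoid-metabolising enzyme, rose from 138 and 74.8 CPM to 418 CPM (2.11 ± 0.51, adjusted p = 0.0008). In core fibroblasts the counts were 8 lower and 2 higher of 23 and 7 lower and 3 higher of 16.

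Wnt and BMP genes gave 10 of 23 lower and 0 higher, with a median of -0.91. Wnt5a, a ligand of non-canonical Wnt signalling, had 715 and 141 CPM against 9.59 CPM (-5.32 ± 0.70, adjusted p = 9.41e-12), and 1 barcode held 72.6% of its UMIs in control replicate 1. Its log2 change was -3.80 without control replicate 1 and -6.07 without control replicate 2. Sfrp2, a secreted Wnt modulator, had 588 and 579 CPM against 32.4 CPM (-4.16 ± 0.63, adjusted p = 5.5e-09). Sost, the Wnt antagonist sclerostin, had 23.1 and 393 CPM against 8.39 CPM (-4.82 ± 0.67, adjusted p = 1.12e-10), which moved to -5.45 without control replicate 1 and to -1.35 without control replicate 2. In control replicate 2 Sost had a UMI in 77.7% of fibroblasts, at most 8 in any 1. The 10 deepest of these held 10.3% of Sost UMIs, against 31.7% of all fibroblast UMIs, 54.6% for Sfrp2 and 37.9% for Wnt5a. Bmp6, a ligand that endothelial cells also make, had 0 and 141 CPM against 12.0 CPM, so the LPS value lay between the controls. Its log2 change was -2.97 ± 0.67 (adjusted p = 0.000278), and with control replicate 1 at 0 UMIs and its floor above the LPS value no fold can be given without control replicate 2. Of its 66 UMIs in control replicate 2, 54 lay in the 59 barcodes led by endothelial genes. The part of free RNA or other cell types in the Sost and Bmp6 values was not tested.

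Growth factor genes gave 4 of 28 lower and 1 higher, beside 3.76% and 6.37% of all genes tested. Igf1, insulin-like growth factor 1, had 208 and 152 CPM against 16.8 CPM (-3.34 ± 0.59, adjusted p = 9.25e-07), and Angptl2, a secreted angiopoietin-like protein, had 104 and 51.3 CPM against 0, at least 16.5-fold lower (adjusted p = 9.71e-07), or 28.9-fold without control replicate 2. Angptl2 entered the test only through its control counts. Angptl4, an inhibitor of lipoprotein lipase, rose from 23.1 and 42.7 CPM to 346 CPM (3.19 ± 0.52, adjusted p = 1.18e-07), a log2 change of 3.85 without control replicate 2. Among myofibroblast and activation genes 3 of 17 rose and 4 fell. Ccn2, connective tissue growth factor, rose from 115 and 235 CPM to 865 CPM (2.21 ± 0.48, adjusted p = 0.000162), or by 2.90 without control replicate 2. Acta2, smooth muscle actin, had 104 and 2304 CPM against 255 CPM, again with LPS between the controls, and its log2 change of -2.28 ± 0.54 (adjusted p = 0.000707) was -3.19 without control replicate 1 and turned to 1.29 without control replicate 2. Smooth muscle markers as a whole stood at 5554 unscaled CPM in fibroblasts of control replicate 2, 3489 in its T-lineage barcodes and 5552 in the whole library. Acta2 itself had a UMI in 99.2% of these fibroblasts (2417 unscaled CPM) and in 99.9% of the T-lineage barcodes (1530). The part of free RNA or smooth muscle cells in the Acta2 value was not tested.

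Glucocorticoid-responsive genes rose in 11 of 19 cases and metal handling genes in 6 of 11, with 0 lower in either list and medians of 2.37 and 2.97. Mt1 and Mt2, the metallothioneins that bind zinc and copper and belong to both lists, went from 404 and 359 CPM to 10962 CPM (4.85 ± 0.51, adjusted p = 3.54e-18) and from 69.2 and 66.2 CPM to 5065 CPM (6.23 ± 0.55, adjusted p = 3.35e-26). Slc39a14, a zinc and iron importer, rose from 23.1 and 27.8 CPM to 587 CPM (4.45 ± 0.57, adjusted p = 1.61e-12). Tsc22d3, the glucocorticoid-induced leucine zipper, rose from 11.5 and 32.0 CPM to 197 CPM (2.83 ± 0.53, adjusted p = 6.39e-06), or by 3.97 without control replicate 2, and stood higher in LPS T-lineage barcodes (388 unscaled CPM) than in fibroblasts (163). Whether T-lineage cells expressed Tsc22d3 themselves was not tested.

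Of 14 circadian genes tested 6 fell and 1 rose, with a median of -1.11. Dbp, the PAR-domain factor that follows the clock, had 185 and 177 CPM against 5.99 CPM (-4.85 ± 0.68, adjusted p = 1.59e-10). Its relative Hlf had 173 and 53.4 CPM against 4.79 CPM (-4.20 ± 0.83, adjusted p = 1.98e-05), or -3.30 without control replicate 1 and -4.89 without control replicate 2. Per3 had 127 and 81.2 CPM against 13.2 CPM (-2.84 ± 0.68, adjusted p = 0.000722), and Nr1d1, the repressor Rev-erb alpha, had 173 CPM in both controls against 50.3 CPM (-1.78 ± 0.52, adjusted p = 0.0107). Bhlhe41, a transcriptional repressor of clock genes, had 46.2 and 42.7 CPM against 0, at least 12.0-fold lower (adjusted p = 0.000301). At 0 with LPS, Bhlhe41 entered the test only through its control counts, so the filter partly sets the count of lower genes. The 1 member that rose was Tsc22d3, given above. Clock time at harvest is not given in the labels, so time of day and LPS cannot be told apart.

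Complement genes gave 1 of 14 higher and 1 lower, beside 6.37% and 3.76% of all genes tested. Cfb, factor B of the alternative pathway, rose from 323 and 154 CPM to 1309 CPM (2.54 ± 0.49, adjusted p = 9.58e-06). C3, the central complement protein, had 1685 and 1472 CPM against 2841 CPM and did not pass (0.85 ± 0.48, adjusted p = 0.306). Both were largely outside T-lineage barcodes in the LPS library, with Cfb at 1088 unscaled CPM in fibroblasts against 3.76 and C3 at 2361 against 50.8. Il33, an alarmin cytokine stored in stromal nuclei, had 299.99 and 152 CPM against 303 CPM, so the LPS value was near the higher control (0.52 ± 0.50, adjusted p = 0.645). Adm, the vasodilator peptide adrenomedullin, rose from 150 and 188 CPM to 910 CPM (2.39 ± 0.49, adjusted p = 3.78e-05).

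The LPS receptor itself was scarce in fibroblasts. Tlr4 had 3 and 4 UMIs in the controls and 22 with LPS, or 34.6, 8.54 and 26.4 CPM, so the LPS value lay between the controls (log2 change 0.91 ± 0.97, adjusted p = 0.687). Of 21 receptor and signalling genes tested 7 rose and 0 fell, with a median of 0.98. Casp4, the sensor of cytosolic LPS, rose from 11.5 and 12.8 CPM to 164 CPM (3.68 ± 0.62, adjusted p = 2.18e-07). Map3k8, a kinase downstream of Toll-like receptors, rose from 23.1 and 12.8 CPM to 149 CPM (3.30 ± 0.62, adjusted p = 5.18e-06), or by 2.63 without control replicate 2. Tnfrsf1a, a receptor for tumour necrosis factor, rose from 57.7 and 72.6 CPM to 211 CPM (1.62 ± 0.49, adjusted p = 0.0138). DESeq2 called 0 of the 21 genes.

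Adhesion and immune checkpoint genes gave 5 of 16 higher and 3 lower, with a median of 0.48. Vcam1, an adhesion receptor for leukocytes, rose from 104 and 120 CPM to 449 CPM (1.98 ± 0.50, adjusted p = 0.0016), and Thy1, a surface glycoprotein of fibroblasts and T cells, fell from 115 and 74.8 CPM to 8.39 CPM (-3.35 ± 0.76, adjusted p = 0.000308). Immediate-early genes gave 5 of 21 higher and 1 lower, the latter Jund, an AP-1 subunit with 599.98 and 611 CPM against 197 CPM (-1.62 ± 0.53, adjusted p = 0.0267). Lipid handling genes gave 4 of 20 each way, among them Scd2, a fatty acid desaturase that fell from 127 and 103 CPM to 10.8 CPM (-3.33 ± 0.66, adjusted p = 2.52e-05). Of 20 glycolysis and hypoxia genes 6 rose and 0 fell. Hif1a, the oxygen-sensitive transcription factor, went from 57.7 and 76.9 CPM to 297 CPM (2.06 ± 0.50, adjusted p = 0.000834) but did not pass in core fibroblasts (adjusted p = 0.193). Endoplasmic reticulum stress genes gave 2 of 19 each way, and cell cycle genes 1 of 9 higher and 0 lower, that being Cdkn1a, an inhibitor of the cycle (23.1 and 44.9 CPM against 219 CPM, 2.46 ± 0.51, adjusted p = 4.61e-05, and 3.19 without control replicate 2). Over all genes tested 6.37% were higher and 3.76% lower, and with so few calls no direction is read from either list.

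Genes of sphingosine-1-phosphate (S1P), the signalling lipid named in the study's title, gave 3 of 19 higher and 0 lower, with a median of -0.45. Over all genes tested 6.37% were higher and 3.76% lower. Sphk1, a kinase that makes S1P, had 0 and 2 UMIs against 86, or 0, 4.27 and 103 CPM, a ratio of 28.6 (7.68 to 240, adjusted p = 3.1e-06), with 0 UMIs in LPS T-lineage barcodes and a rise of at least 2.98-fold without control replicate 2. Sphk1 entered the test only through its LPS counts. S1pr1, the receptor typical of endothelium and lymphocytes, had 0 and 25.6 CPM against 91.1 CPM (2.17 ± 0.66, adjusted p = 0.0144), and was at least 2.63-fold higher without control replicate 2. Its level in LPS endothelial cells was 700.0 unscaled CPM against 75.7 in fibroblasts, and it did not pass in clean fibroblasts (0.81, adjusted p = 0.701). S1pr2 and S1pr3, receptors found on mural and stromal cells, had 8, 15 and 10 UMIs and 5, 10 and 15 UMIs in that library order, and did not pass (adjusted p = 0.108 and 0.72). Plpp3, a phosphatase that degrades S1P outside cells, had 992 and 805 CPM against 419 CPM and did not pass (-1.09 ± 0.51, adjusted p = 0.188).

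Fibroblasts were next set against endothelial cells of the same libraries, 25, 67 and 133 barcodes gated by 5 endothelial genes, with library as a block and the genes of both gates left out of the counts. Median depths of the endothelial barcodes were 5650, 7354 and 3652 UMIs, against 1255.5, 1920 and 2202 in fibroblasts. Haemoglobin took 0.031, 5.38 and 4.58% of endothelial UMIs, against 18.0, 20.8 and 7.03%. Gm42418 took 12.5, 1.62 and 16.5%, against 14.6, 1.75 and 29.1%. The part of depth and quality in these comparisons was not tested. Averaged over untreated and LPS, 665 of 8487 genes were higher in fibroblasts (7.84%) and 720 lower (8.48%). Abca8a had 655, 415 and 25.6 CPM in fibroblasts and 0 in endothelial cells of every library, at least 83.8-fold higher over the pooled sums (adjusted p = 1.38e-23). C7, a terminal complement component, had 206, 61.5 and 128 CPM against 0, at least 48.5-fold higher (adjusted p = 4.79e-26). Il33 had 315, 182 and 340.4 CPM in fibroblasts against 0, 0 and 3.06 CPM, a pooled ratio of 125 (42.4 to 608, adjusted p = 6.75e-40). Mmp3 gave a pooled ratio of 104 (52.6 to 242, adjusted p = 2.33e-40). The proprotein convertase Pcsk6 (at least 42.1-fold), the secreted ligand Lgi2 (at least 30.3-fold) and Olfml3, an extracellular olfactomedin-like protein (at least 28.2-fold), were likewise at 0 in endothelial cells. The bounds without control replicate 2 were 25.6 for Abca8a, 10.9 for Pcsk6, 19.6 for Lgi2 and 10.9 for Olfml3. Without the LPS library they were 17.1 for C7 and 14.6 for Lgi2, and the folds of Il33 and Mmp3 were at least 40.4 and 39.2.

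On the other side, Fgfr3, a fibroblast growth factor receptor, was at 0 in fibroblasts of every library and at 93.9, 69.3 and 35.7 CPM in endothelial cells, at least 29.3-fold higher there (adjusted p = 2.55e-12). Sele, the endothelial adhesion molecule E-selectin, had 0, 0 and 29.6 CPM in fibroblasts against 36.5, 50.7 and 243 CPM, a pooled ratio of 11.7 (7.56 to 18.9, adjusted p = 3.08e-12). Myzap, a junctional protein, had 1 UMI over all fibroblasts and 111 over all endothelial cells. The bound of Fgfr3 was 16.8 without control replicate 2 and 15.7 without the LPS library. Leaving out the LPS library gave 340 genes higher and 307 lower of 4811, and DESeq2 gave 218 and 136.

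The test of a difference in LPS response between the cell types called few genes and had little power. On simulated counts it recovered 0, 8, 12 and 44% of genes whose responses differed by a log2 of 1, 2, 3 and 4. The small number of calls therefore does not show that the cell types responded alike. The interaction of cell type and LPS called 11 of 8487 genes with a more positive change in fibroblasts (0.130%) and 18 with a more positive change in endothelial cells (0.212%), 0.342% together. An unadjusted p under 0.05 was found for 355 of the 8487, a share below 0.05. DESeq2 called 0, with 22 and 24 genes at an unadjusted p under 0.05 in those directions. Haemoglobin genes made up 4 of the 29 calls. Core fibroblasts gave 44 and 25 calls and clean fibroblasts 24 and 17. Both were set against unfiltered endothelial sums, in which 51 of 133 LPS barcodes had at least 40% of UMIs on Gm42418. All values below are CPM in control replicates 1 and 2 and the LPS library on the scale of this fit.

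**Figure D5:**
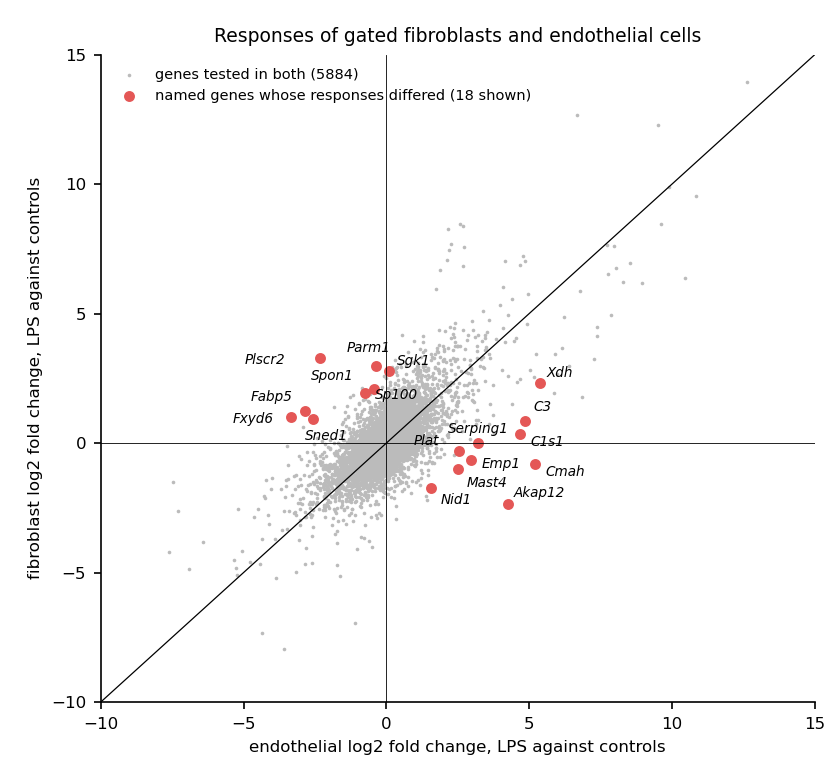
Log2 fold change with LPS in endothelial cells (x axis) and in fibroblasts (y axis) for the 5884 genes tested in both, 1 grey point each, with 18 named genes whose responses differed in red and the line of equal change. Red genes to the upper left, such as Fxyd6 and Sgk1, had the higher change in fibroblasts, and those to the lower right, such as Akap12 and Cmah, in endothelial cells.

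Where the change was more positive in fibroblasts, LPS fibroblasts lay above both of their controls in each gene named here. Fxyd6, a regulator of the sodium pump, had 12.1, 23.1 and 40.4 CPM in fibroblasts and 104, 123 and 11.2 CPM in endothelial cells (difference 4.34 ± 0.87, adjusted p = 0.000751). Fabp5, a fatty acid binding protein, had 24.3, 66.6 and 124 CPM against 10.4, 155 and 13.3 CPM (4.23 ± 0.74, adjusted p = 2.67e-05), or 1.95 without control replicate 2. Aldh1a3, which makes retinoic acid, had 48.5, 30.8 and 174 CPM against 31.3, 6.76 and 3.06 CPM (4.23 ± 1.11, adjusted p = 0.0424), or 3.45 without control replicate 1. Sgk1, a glucocorticoid-induced kinase, had 0, 30.8 and 159 CPM against 46.9, 157 and 119 CPM (2.89 ± 0.71, adjusted p = 0.0216), and with its fibroblasts at 0 in control replicate 1 it has no value without control replicate 2.

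On the opposite side stood 3 complement genes and a protease that fibroblasts expressed in every library, with LPS endothelial cells above both of theirs. C3 had 1770.5, 1766 and 3189 CPM in fibroblasts and 0, 8.45 and 187 CPM in endothelial cells (-4.06 ± 0.83, adjusted p = 0.00112). Serping1, the C1 inhibitor, had 2183, 1463 and 1842 CPM against 31.3, 54.1 and 422 CPM (-3.12 ± 0.67, adjusted p = 0.00311). C1s1, a C1 protease, had 182, 264 and 288 CPM against 0, 1.69 and 37.7 CPM (-4.41 ± 1.11, adjusted p = 0.034), and Plat, tissue plasminogen activator, had 243, 256 and 198 CPM against 26.1, 64.2 and 299 CPM (-2.93 ± 0.64, adjusted p = 0.00428). Without control replicate 2 the difference was -3.99 for Serping1 and -3.80 for Plat, while C3 and C1s1, at 0 in endothelial cells of control replicate 1, have no value.

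For 3 other genes LPS fibroblasts lay below both controls and LPS endothelial cells above both. Akap12, a scaffold of protein kinase A, had 267, 261 and 51.1 CPM in fibroblasts against 5.21, 0 and 29.6 CPM (-6.62 ± 1.04, adjusted p = 1.85e-06), the smallest adjusted p of this comparison. Cmah, which modifies sialic acid, had 72.8, 38.4 and 26.9 CPM against 0, 5.07 and 148 CPM (-5.98 ± 0.97, adjusted p = 3.33e-06). Nid1 had 909, 559 and 221 CPM against 41.7, 52.4 and 143 CPM (-3.17 ± 0.66, adjusted p = 0.00142). Xdh, xanthine oxidoreductase, lay above the controls in both cell types, with 243, 105 and 789 CPM in fibroblasts and 10.4, 11.8 and 489 CPM in endothelial cells (-2.90 ± 0.76, adjusted p = 0.0424). Without control replicate 2 the difference was -4.70 for Akap12, -3.82 for Nid1 and -3.76 for Xdh, and without control replicate 1 it was -5.18 for Cmah. The controls behind the endothelial values of Akap12, Cmah and C1s1 held 1, 3 and 1 UMIs in all, and left 0 UMIs where Akap12 was taken without control replicate 1 and Cmah without control replicate 2.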

How the data were processed

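Single-cell RNA libraries (10x 3' chemistry, version 3) were made from 2 control samples and 1 LPS sample. The authors deposited UMI counts per gene and barcode for 32285 genes; per the submitters' processing notes these came from Cell Ranger 3.1 on mm10, with R 4.2.1 and Seurat 4.2.0, and the sources used here do not give the rule that chose the deposited barcodes. The labels do not number the controls, which are called replicate 1 and 2 in record order.

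From the counts, barcodes were kept from 500 UMIs and 300 genes upward unless mitochondria gave over 15% of UMIs, and were gated as the report describes. Doublets were not called. Counts were summed per library and tested with edgeR 4.0.16 (quasi-likelihood, TMM, filterByExpr, R 4.3.3) and Benjamini-Hochberg adjustment, with DESeq2 1.42.0 as an alternative. Gate genes stayed in the fits and were left out of every count of calls. Clusters used scanpy 1.11.5 under Python 3.11.15, and exact intervals scipy 1.17.1. Each library is 1 pool, so p-values measure only the spread between these samples, which may be technical; intervals and the floor of 3 UMIs cover counting error only. T-lineage barcodes (at least 1 Ptprc UMI and at least 3 UMIs of 6 T cell genes) served as a reference for free RNA. That holds only for genes that these cells do not express themselves, which was not tested gene by gene. The natural killer cell gene Nkg7 had a UMI in 23.0% of LPS T-lineage barcodes.

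The members and gene lists were chosen with earlier results of these data known. Genes were named by rule: the 15 largest called changes each way among genes averaging 20 CPM or more whose LPS value was outside the range of the controls, the 4 largest each way in each of 30 lists, and the 10 largest each way for the differences between cell types. Not every gene the rule names is printed. Chosen after their values were seen were Col3a1, Ifit1, and the LPS values of C3 and Il33. On simulated counts the LPS test recovered 6, 20, 72 and 80% of genes changed by a log2 of 1, 2, 3 and 4 (5796 genes), and the interaction 0, 8, 12 and 44% (7639 genes). The simulation took a single assumed dispersion for all genes and changed only genes above a minimum of UMIs expected in control replicate 1. Recovery of lower genes was not measured.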

Additional observations from a re-analysis of the deposited data

Results flagged for a closer look

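These 20 genes were singled out because the test of the difference itself found their LPS response to differ between fibroblasts and endothelial cells (edgeR, adjusted p under 0.05). More positive in fibroblasts, on the log2 scale, were Dio2 by 6.08, Plscr2 by 5.67, Fxyd6 by 4.34, Aldh1a3 by 4.23, Fabp5 by 4.23, Sned1 by 3.42, Parm1 by 3.35, Sgk1 by 2.89, Spon1 by 2.63 and Sp100 by 2.58. More positive in endothelial cells were Akap12 with -6.62, Cmah with -5.98, C1s1 with -4.41, C3 with -4.06, Emp1 with -3.71, Mast4 with -3.48, Nid1 with -3.17, Serping1 with -3.12, Plat with -2.93 and Xdh with -2.90. DESeq2 called 0 of them. Dio2 did not pass in core fibroblasts (adjusted p = 0.147) or in clean fibroblasts (adjusted p = 0.106), and C1s1 (adjusted p = 0.0515) and Xdh (adjusted p = 0.0523) did not pass in clean fibroblasts. Leaving out 1 control moved the fold by over 1.5 times for 11 of the genes. Without control replicate 2 the difference was 1.95 for Fabp5, 3.25 for Sp100, -4.70 for Akap12, -4.12 for Mast4, -3.82 for Nid1, -3.99 for Serping1, -3.80 for Plat and -3.76 for Xdh. Without control replicate 1 it was 5.48 for Dio2, 3.45 for Aldh1a3 and -5.18 for Cmah. The control left was at 0 UMIs, so that no value is given, for Dio2, Plscr2, Parm1 and Sgk1 (fibroblasts) and C3, C1s1 and Cmah (endothelial cells) without control replicate 2, and for Akap12 (endothelial cells) without control replicate 1.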

How the results depend on the processing

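Core fibroblasts, clean fibroblasts and the removal of each library's deepest barcode were alternatives chosen after seeing the data. Counts of genes higher and lower with LPS (420 and 248) moved to 51 and 41 with DESeq2, to 252 and 373 without TMM factors (the median of all genes then was -0.30), to 131 and 82 in barcodes with no UMI of other gates' genes (1228 tested), to 102 and 24 after thinning to 1000 UMIs (2067 tested) and to 239 and 145 in clean fibroblasts. With no filter on low counts 136 were lower. The interaction (11 and 18) gave 0 and 0 with DESeq2 (22 and 24 at an unadjusted p under 0.05), and 17 higher without mitochondrial, Gm42418, AY036118 and haemoglobin genes, 24 in clean and 44 in core fibroblasts. For clean and core fibroblasts the endothelial sums stayed unfiltered. The level difference (665 and 720) gave 218 and 136 with DESeq2 and 340 and 307 without the LPS library. The fibroblast share moved under the stricter gate to 2.34% in control replicate 2 and 1.61% with LPS, and to 10.4% with LPS over clean barcodes. Leaving out 1 control at a time gave log2 changes from -3.19 to 1.29 for Acta2, positive without control replicate 2; the cause was not tested. Fits without a control have no residual degree of freedom and gave no test. No paired analysis was possible because the labels give no replicate numbers. Subtraction of free RNA was not run: haemoglobin, its intended measure, took 20.8% of fibroblast UMIs in control replicate 2 against 7.91% of the library's. The 84567 fibroblast UMIs of control replicate 1 limit low genes most.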
